A study of Mus musculus with 15 samples.

Results

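Cultures of MC3T3 cells held for 3 days in an osteogenic mixture were compared with cultures held for 1 day in the same mixture. The mixture was ascorbic acid (AA) plus bone morphogenetic protein 2 (BMP-2) on top of beta-glycerol phosphate (GP), and cultures that received it are called treated here. The comparison used 6 of the 15 arrays of the series, 3 per day, chosen by their labels alone. They were paired by the prep number, 1 to 3, in their titles, which do not say what a prep is. The remaining 9 arrays were day 0 in control medium and GP without AA or BMP-2 at days 1 and 3, with preps 1 to 3 in each group. The cells were clone 1b of MC3T3, a line from mouse calvaria (the skull vault), so all values are those of 1 clone. GP was present in all 12 arrays of days 1 and 3. AA and BMP-2 were never given apart, so their parts in a change cannot be told apart. The labels do not say whether the preps came from different cultures. The p-values come from a fit that takes out the level of each prep. They cover only the spread then left between arrays of a group, which may be technical.

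Osteoblast precursors that are induced to differentiate first lay down a collagen matrix, then raise alkaline phosphatase and the receptor for parathyroid hormone, and later mineralise. BMP-2 acts through receptor kinases that phosphorylate Smad proteins, which switch on the Id genes, Dlx and Msx homeobox genes, and the inhibitory Smads that damp the signal. Ascorbic acid is the cofactor of the enzymes that hydroxylate collagen, and alkaline phosphatase frees phosphate from GP. The comparison asks how expression moved between an early and a later day of this programme.

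Each array gave a linear intensity for 12488 probe sets, of which 66 were controls. A signal filter left 7454 of the 12422 others for testing, and 6750 of these had a single gene symbol, standing for 5649 genes. The mean of each array's values without its extremes lay between 149.1 and 150.0 on all 15 arrays, so they had been brought to a common level before deposit. The share of probe sets at or under the floor of 2.8 set before taking logs was 12.3% and 12.7% in prep 3 of treated cultures at days 1 and 3, against 6.97% to 8.81% in preps 1 and 2. The ratio of 3′ to 5′ actin control signal, a measure of RNA integrity, was 1.01 to 1.34 on the 6 treated arrays and reached 2.11 in prep 3 of GP day 3. The preps also stood apart along the genes called below: at treated day 1, prep 3 was the highest prep for 60.1% of the probe sets called higher at day 3 (35.8% of all tested) and the lowest for 65.0% of those called lower (42.2% of all tested). The part of these differences between preps in the results was not tested. As the data are arrays, their number limits the precision. The 15 calvarial fibroblast and preosteoblast markers on the array, 14 of them tested, summed to 27419 to 35433 in the day 1 treated arrays. They summed to 35453 to 43382 in the day 3 treated arrays. Of the 14 tested, 8 had a positive change, 2 were called higher (Dcn and Col3a1) and 2 lower (Thy1 and Cdh11). Much of the sum is Col1a1 and Col1a2, which averaged 10223 and 9989 at treated day 3 and were not called. Col1a1, the main collagen of these cells, read 7643 to 11862 on the 6 treated arrays. Of the markers of other cell types on the array, 3 of 16 for macrophages and osteoclasts, 5 of 13 for adipocytes, 4 of 13 for chondrocytes, 8 of 20 for skeletal muscle, 2 of 11 for endothelium, 2 of 13 for epithelium and 6 of 13 for neural cells passed the signal filter. Of these, only Ctsk among the macrophage and osteoclast markers (higher) and Tubb3 among the neural markers (lower) passed the test.

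From day 1 to day 3 of treatment, several genes of the osteoblast phenotype and of the small leucine-rich proteoglycans rose. Chemokine and prostaglandin genes, several genes of the BMP and transforming growth factor beta (TGF-beta) lists and some cell division genes fell. A limma fit over all 15 arrays with prep number as a block called 295 of 7454 probe sets at a Benjamini-Hochberg adjusted p under 0.05, or 3.96%. Of these, 158 were higher at day 3 (2.12%) and 137 lower (1.84%). At the level of genes, 131 of 5649 were higher (2.32%) and 106 lower (1.88%). The median change of the called probe sets was 0.81 on the log2 scale among those that rose and -0.91 among those that fell, beside -0.01 over all tested probe sets. Changes beyond 1 log2 unit were found for 57 of those that rose and 54 of those that fell. The day 1 and day 3 values did not overlap for 121 of the 158 and 86 of the 137, whereas this held for 12.4% of all tested probe sets.

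The calls rested on the pairing of arrays by prep. Without the prep block the same fit called 10 probe sets (0.134%), 6 higher and 4 lower, and all 10 were also called with the block. Of the 72 called genes named below, Ackr3, Fbln2, Nqo1, Plat and Pdgfa passed without it. The day 3 minus day 1 differences correlated across probe sets at 0.23 to 0.30 for prep 1 with preps 2 and 3, and at 0.20 for preps 2 and 3. Probe sets are not independent replicates, so these are descriptions. Leaving out all arrays of prep 2 left 0 calls, with 925 probe sets at an unadjusted limma p under 0.05 against 1242 with all arrays. Leaving out all arrays of prep 1 left 72. Leaving out the treated day 1 array of prep 1 or prep 2 left 137 or 101 calls, and the day 3 array of prep 2 left 154. Of the 72 named genes, 44, 34 and 40 kept their call without those 3 arrays. The genes that passed without any 1 of the 6 treated arrays were 29 of the 72: Omd, Col15a1, Ccnd1, Myc, Ahr, Ephx1, Ptgfr, Ackr4, Pdgfa, Fgfr1, Plat, Hexa, Tpp1, Atp6v1b2, Ackr3, Cxcl12, Ptgs2, Saa3, Osmr, Fbln2, Vcan, Id4, Tgfbi, Klf10, Jun, Nqo1, Rrm2, Vegfd and Adam9. The other 43 lost their call without at least 1 array, with adjusted p up to 0.209.

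**Figure D1:**
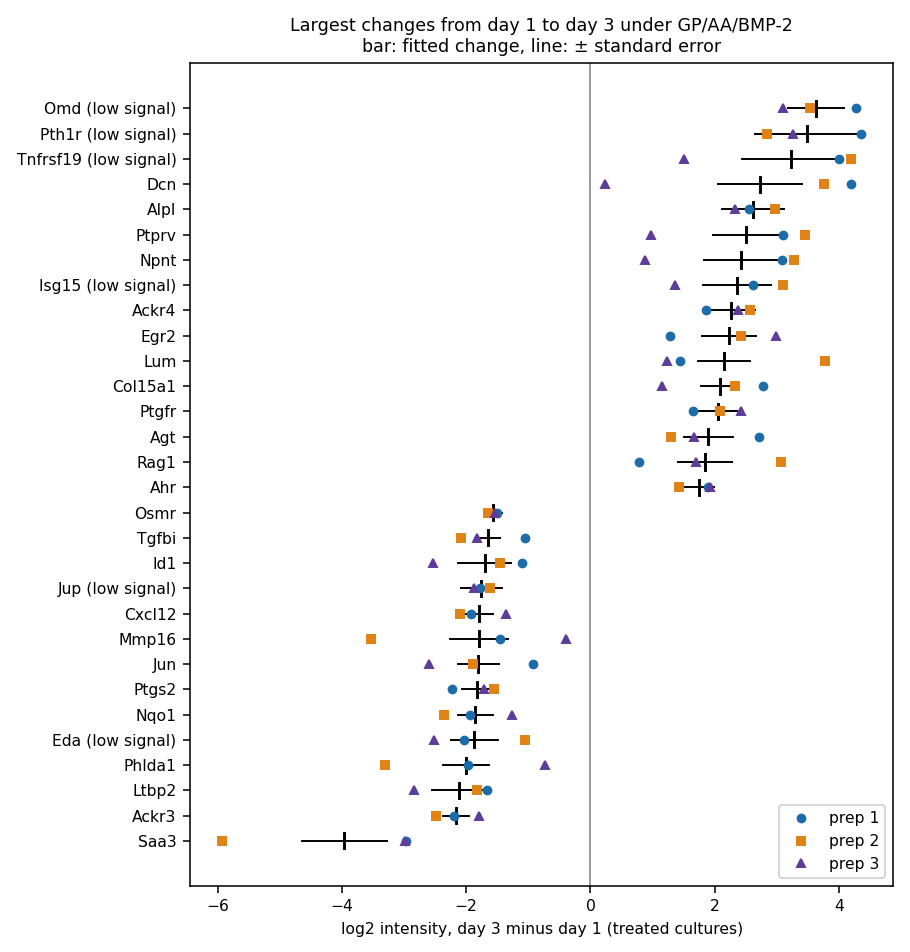
Day 3 minus day 1 log2 intensity in treated cultures for the called genes with the largest changes each way; coloured points are the 3 preps, vertical bars the fitted change and horizontal lines its standard error. Only genes with the same sign in all 3 preps were taken, so the points of a gene lie on the same side of 0 by selection. The spread between preps is widest for genes such as Saa3, Dcn and Mmp16. Genes marked as low signal had a day mean under the signal filter, so the size of their change is uncertain.

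Genes of the osteoblast phenotype gave some of the largest increases. Of 9 tested members of this list, 4 rose and 1 fell, where 2.32% of all tested genes were called higher and 1.88% lower. Of the 9, Omd, Pth1r and Ibsp passed the signal filter only through the treated day 3 arrays, where they are high, so a count or median over the 9 leans upward and is given as a description. The other 6 had 2 that rose (Alpl and Ogn), 1 that fell and a median change of 0.57, beside -0.01 over all tested genes. Alpl, the alkaline phosphatase of mineralising cells, read 61.8, 71.3 and 194 at day 1 in preps 1, 2 and 3, and 363, 557 and 971 at day 3. Every day 3 value lay above every day 1 value. The limma change was 2.62 ± 0.50 log2 (SE; 6.13-fold), with an adjusted p of 0.0111. Omd, the mineral-binding proteoglycan osteomodulin, read 4.5, 13.8 and 28.5 at day 1 and 87.2, 159 and 244 at day 3, a change of 3.63 ± 0.45 log2 (adjusted p = 0.00101). Pth1r, the receptor of parathyroid hormone, read 2.4, 18.4 and 44 at day 1 and 57.4, 131 and 419 at day 3, a change of 3.48 ± 0.83 log2 (adjusted p = 0.0341). Both were separated between the days in all arrays, but their day 1 means lay under the signal filter of 25.4, which leaves the amount of change uncertain.

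Ogn, the proteoglycan osteoglycin, rose from 472, 788 and 1275 to 2374, 1671 and 1644, a change of 1.26 ± 0.28 log2 (adjusted p = 0.0225). Prep 1 had the lowest day 1 value and the highest day 3 value. Ogn averaged 3670 at day 0, and 2531 and 3767 in GP cultures at days 1 and 3, a GP change of 0.61. The treated means were 845 and 1896, so Ogn at treated day 3 still averaged less than at day 0 or in GP cultures. A further probe set of Ogn changed by 0.92 and did not pass (adjusted p = 0.103). The call for Alpl was lost without the treated day 1 array of prep 1 (adjusted p = 0.063) or of prep 2 (0.066), that for Pth1r without any 1 of the 6 treated arrays (0.051 to 0.145), and that for Ogn without any 1 of the 4 of preps 1 and 2 (0.052 to 0.12). Genes called higher on this list numbered 1 without the day 1 array of prep 1 or of prep 2 and 2 without the day 3 array of prep 2.

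Of the remaining members, only Cdh11 passed the test. Tnfrsf11b, the decoy receptor osteoprotegerin that restrains osteoclasts, read 203, 270.4 and 211 at day 1 and 236, 533 and 500.0 at day 3, and its change of 0.81 ± 0.22 log2 did not pass (adjusted p = 0.0563; 0.021 without the day 3 array of prep 1). Ibsp, the bone sialoprotein, read 40.9, 27.6 and 6.1 at day 1 and 66.5, 24.4 and 169 at day 3, higher at day 3 in preps 1 and 3 but not in prep 2, and its change of 1.77 ± 0.93 log2 did not pass (adjusted p = 0.372). Sparc, an abundant matrix protein of bone, changed by 0.33 ± 0.14 log2 (adjusted p = 0.228). Cdh11, the osteoblast cadherin, fell from 281, 246 and 216 to 179, 164 and 137, a change of -0.63 ± 0.16 (adjusted p = 0.0445), a call lost without any 1 of the 6 arrays (0.060 to 0.178). Runx2, Sp7, Bglap and Spp1 were not tested, because no probe set with their single symbol passed the filter.

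**Figure D2:**
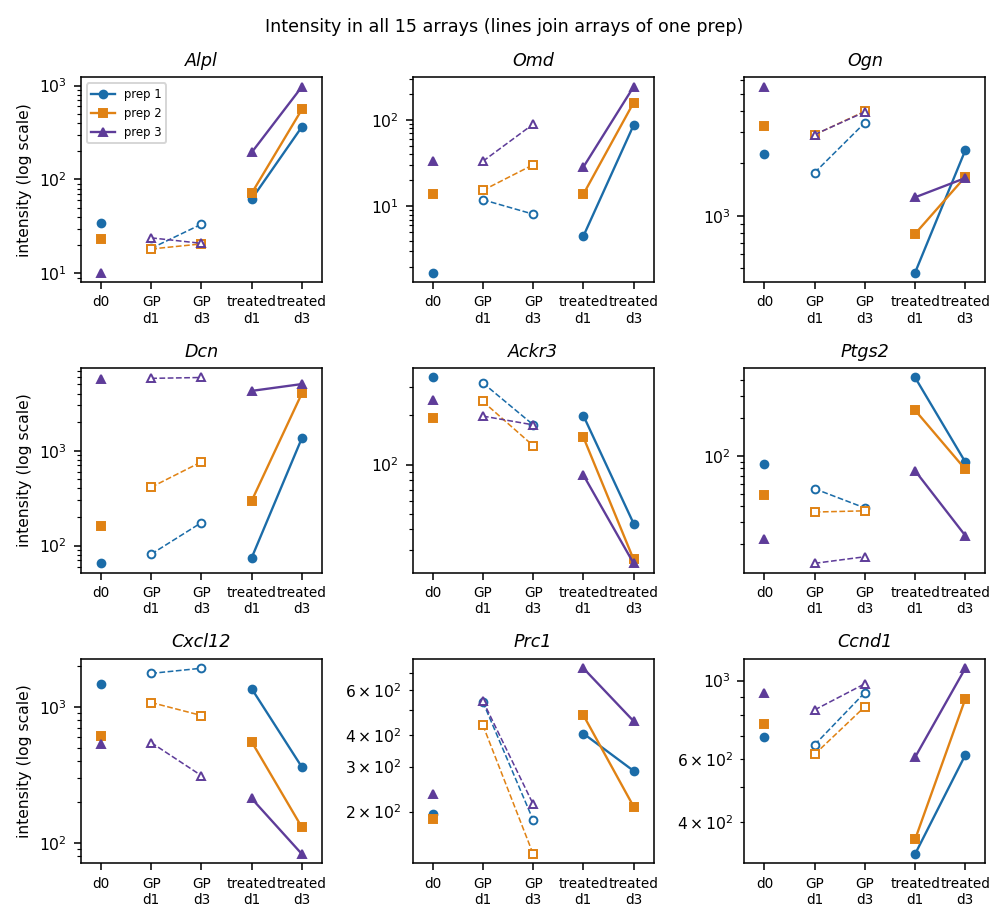
Intensity on a log axis in all 15 arrays for 9 genes; the columns are day 0, GP day 1, GP day 3, treated day 1 and treated day 3, symbols and colours mark preps 1 to 3, and lines join day 1 to day 3 within a prep (dashed for GP, solid for treated). Alpl, Omd and Ccnd1 climb and Ackr3, Ptgs2 and Cxcl12 drop along all 3 solid lines. Dcn differs more between preps at day 1 than between days in prep 3.

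Among matrix genes, several proteoglycans rose. Of 16 tested proteoglycan genes, 5 rose (Omd, Dcn, Lum, Ogn and Gpc1) and 1 fell (Vcan), with a median of 0.33, where 2.32% of all tested genes were called higher and 1.88% lower. Omd is counted here too, and without it 4 of 15 rose. Dcn and Lum encode decorin and lumican, which coat collagen fibrils and set their width. Dcn read 74.2, 296 and 4273 at day 1 and 1359, 4020.3 and 5046 at day 3, a change of 2.73 ± 0.68 log2 (adjusted p = 0.0411). Prep 3 was already high at day 1 and moved by only 0.24, so the days overlapped and the increase lay in preps 1 and 2. The call was lost without any 1 treated array other than the day 3 array of prep 3 (adjusted p = 0.062 to 0.169). Lum read 27.5, 44.3 and 978 at day 1 and 74.4, 608 and 2289.6 at day 3, a change of 2.15 ± 0.42 (adjusted p = 0.012). Its days also overlapped, with prep 3 highest on both days, and its call was lost without the day 1 array of prep 2 (adjusted p = 0.079). Ogn and Omd are neighbours on chromosome 13, and Lum and Dcn on chromosome 10, with 0 protein-coding genes between the members of each pair in the RefSeq annotation.

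Vcan, the large hyaluronan-binding proteoglycan versican of provisional matrix, fell from 1434, 1206 and 585 to 548, 464 and 256, a change of -1.32 ± 0.19 log2 (adjusted p = 0.00226). It fell in each prep, with no overlap between the days. Gpc1, a cell-surface heparan sulphate carrier, rose by 0.91 ± 0.18 (adjusted p = 0.0129). The number of proteoglycans called higher fell to 1 without the treated day 1 array of prep 2, to 2 without either array of prep 1 and to 3 without the day 3 array of prep 2.

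Among fibrillar collagens 1 of 6 passed the test, where 2.32% of all tested genes were called higher and 1.88% lower. All 6 had a positive change, with a median of 0.35, and Col3a1 rose, from 1853, 2962 and 2939.6 to 4109, 6222 and 4336 (0.93 ± 0.17 log2, adjusted p = 0.0093). The other 2 tested probe sets of Col3a1 changed by 0.87 and 0.26 and did not pass. Without the day 1 array of prep 1 its adjusted p was 0.052. Col1a1 and Col1a2, the chains of the main bone collagen, changed by 0.24 ± 0.13 and 0.19 ± 0.10, with adjusted p of 0.402 and 0.395. Col11a1, a minor fibril chain, changed by 1.26 ± 0.49 and did not pass (adjusted p = 0.203). Lox, which cross-links collagen, fell by 0.93 ± 0.16 log2 (adjusted p = 0.00744; 0.052 without the day 1 array of prep 2). It was the only call among 12 collagen processing enzymes.

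Other matrix genes moved singly, where 2.32% of all tested genes were called higher and 1.88% lower. Among 15 basement membrane genes, Col15a1 rose from 41, 81.2 and 187 to 281, 407 and 414 (2.08 ± 0.30 log2, adjusted p = 0.00194) and Lama4 rose by 0.58 ± 0.12. Among 20 adhesive and elastic matrix genes, only Fbln2, the elastic-fibre protein fibulin 2, was called. It fell from 2001, 1724 and 1353 to 764, 615 and 727, a change of -1.26 ± 0.12 (adjusted p = 0.000212), with day 3 values close together. Npnt, an integrin ligand of bone and kidney matrix, rose from 320.5, 504 and 2291 to 2709, 4900.4 and 4232 (2.42 ± 0.59 log2, adjusted p = 0.0366). Its rise was 0.89 in prep 3 and 3.08 and 3.28 in preps 1 and 2, and its call was lost without any array but that of day 3 prep 3 (0.081 to 0.156). Ltbp2, a fibrillin-associated protein, fell from 705, 428 and 136 to 222, 121 and 19.1 (-2.11 ± 0.43, adjusted p = 0.0155), a call lost without the day 1 array of prep 1 or of prep 2 (0.070 to 0.087).

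Genes of the BMP pathway fell or did not pass the test. Of 25 tested genes of the BMP list 3 fell, where 1.88% of all tested genes were called lower, and the median change was -0.24. None rose, which is near the 2.32% of all genes called higher and is no result about the list. Id1, a dominant-negative partner of helix-loop-helix factors and a direct Smad target, fell from 439.6, 353 and 186 to 204, 129 and 31.9 (-1.70 ± 0.42 log2, adjusted p = 0.0417). Id4 fell from 472, 309 and 224 to 228, 118 and 91.5 (-1.24 ± 0.21, adjusted p = 0.00659). Smad7, an inhibitory Smad, fell from 262, 178 and 207 to 134, 115 and 75.9 (-1.02 ± 0.21, adjusted p = 0.0147). For Id1 and Id4 prep 3 was lowest on both days, and each prep fell. The call for Id1 was lost without any 1 of the day 1 arrays or the day 3 array of prep 3 (adjusted p = 0.069 to 0.176), and that for Smad7 without the day 1 array of prep 1 or 3 or the day 3 array of prep 3 (0.059 to 0.082). With any 1 of those last 3 arrays left out, 1 gene of the list was called.

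Id2 and Id3 stayed uncalled. Id2 read 956, 999.5 and 909.7 at day 1 and 741, 665 and 129.5 at day 3, so the large drop was in prep 3 (adjusted p = 0.324). Id3 read 2657, 2759 and 1238 at day 1 and 2093, 1795 and 612 at day 3 (adjusted p = 0.294). The inhibitory Smad6 and the homeobox genes Dlx1, Dlx2, Dlx5, Msx1 and Msx2 changed by between -0.56 and 0.13 log2 without passing. The BMP antagonist Nog changed by -0.14 ± 0.31. The sign turned for Smad6 (0.10), Msx1 (0.12) and Nog (0.16) without the day 3 array of prep 3, and for Dlx5 (-0.13) without all arrays of prep 1. From day 1 to day 3 in GP cultures, Id1 changed by -1.42 log2, Id2 by -2.16 and Id3 by -2.12. Of these, only Id3 was called there (limma adjusted p = 0.0017). Id4 and Smad7 changed by 0.34 and 0.11 in GP cultures and were not called. Id4 averaged 875 at day 0, and 606 and 765 in GP cultures at days 1 and 3. Its treated means were 335 and 146, and every treated array lay under every GP and day 0 array. The fall of Id4 is thus a further drop of a gene already lower in treated cultures at day 1.

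Of 19 tested genes of the TGF-beta axis, 1 rose and 3 fell, beside 2.32% of all tested genes called higher and 1.88% lower. The ligand gene Tgfb1 rose from 99.2, 182 and 211 to 412, 514 and 435 (1.53 ± 0.32 log2, adjusted p = 0.0185), with every day 3 value above every day 1 value; the call was lost without the day 1 array of prep 1 or 2 or the day 3 array of prep 2 or 3 (0.055 to 0.087). Tgfbi, an adhesive protein named for its induction by TGF-beta, fell from 839, 994 and 299 to 402, 234 and 84.8 (-1.66 ± 0.20, adjusted p = 0.000878). Klf10, an early TGF-beta response factor, fell from 340.4, 275 and 214 to 116, 128 and 139 (-1.09 ± 0.17, adjusted p = 0.00292). Ltbp2 was the remaining call. Ccn2, the connective tissue growth factor, read 569, 256 and 122 at day 1 and 219, 331 and 190.1 at day 3, lower at day 3 in prep 1 and higher in preps 2 and 3. Its change of -0.12 ± 0.61 turned to 0.80 without the day 1 array of prep 1 and to 0.25 without the day 3 array of prep 3. None of 23 Wnt pathway genes passed, and their median was 0.01.

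Several chemokine and inflammation genes fell. Of 21 tested, 6 fell, 1 rose and the median was -0.59, against 1.88% of all genes called lower. Ackr3, the scavenging receptor of the chemokine Cxcl12, fell from 199, 147 and 86.2 to 43.5, 26.2 and 24.8 (-2.16 ± 0.21 log2, adjusted p = 0.000212). Cxcl12 itself fell from 1369, 557 and 213 to 362, 130.5 and 82.9 (-1.79 ± 0.23, adjusted p = 0.00101), and its other 2 probe sets were also called lower. The change of Cxcl12 was -1.92, -2.09 and -1.36 log2 in preps 1, 2 and 3, although prep 1 at day 3 still lay above prep 3 at day 1. Ptgs2, the inducible cyclooxygenase that makes prostaglandin precursors, fell from 421, 231 and 76.6 to 89.8, 78.7 and 23.4 (-1.83 ± 0.23, adjusted p = 0.00102), with prep 3 at day 1 under preps 1 and 2 at day 3. Saa3, an acute-phase protein, read 2327, 207 and 22.2 at day 1 and 298, 3.4 and 2.2 at day 3 (-3.96 ± 0.68, adjusted p = 0.00659). Its levels differed between preps by more than between days, and preps 2 and 3 ended near the floor, so the size of the fall is uncertain.

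The remaining members called lower were Vcam1 (-0.94) and Ptges (-0.62), the prostaglandin E synthase, and Cx3cl1 rose by 0.57. These 3 were named after their values were seen. The number of calls that fell was 4 without the treated day 1 array of prep 1 or of prep 2 or the day 3 array of prep 2, and 2, 0 and 10 without all arrays of prep 1, of prep 2 and of prep 3. Ptgfr, the receptor for prostaglandin F, rose from 287, 208 and 124 to 903, 879.6 and 663 (2.05 ± 0.30, adjusted p = 0.00232). Osmr, the oncostatin M receptor, fell from 862, 554 and 143 to 302, 176 and 49.2 (-1.57 ± 0.14, adjusted p = 0.000212), by a nearly equal amount in each prep, although the days overlapped. Ackr4, another scavenging chemokine receptor, rose from 67.8, 70.8 and 106 to 247, 420.0 and 547 (2.27 ± 0.38, adjusted p = 0.00568).

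Growth factor genes moved both ways. Of 28 tested, 3 rose and 5 fell, where the shares over all genes were 2.32% higher and 1.88% lower. Pth1r, counted above, is among the 3 and passed the signal filter only through the treated day 3 arrays. Without it 2 of 27 rose. Pdgfa, a chain of platelet-derived growth factor, rose from 360.0, 426 and 403 to 752, 1324 and 1868 (1.64 ± 0.23 log2, adjusted p = 0.0016), without overlap. Fgfr1, a receptor of fibroblast growth factors, rose by 1.06 ± 0.17, and Pth1r made up the third. Those that fell were Vegfd (-1.42 ± 0.18, adjusted p = 0.00101), Igf1 (-1.26), Kitl (-1.04), Igfbp6 (-0.95) and Bdnf (-0.83), the last 4 named after their values were seen. Plat, the tissue plasminogen activator, rose from 189.8, 205 and 348 to 566, 860.0 and 652 (1.52 ± 0.22, adjusted p = 0.00226). Of the other proteases, the membrane metalloproteinase Mmp16 fell by 1.79 ± 0.46 and the metalloprotease Adam9 by 0.75 ± 0.13. The Mmp16 call was lost without any 1 treated array but that of day 3 prep 3 (0.066 to 0.209).

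**Figure D3:**
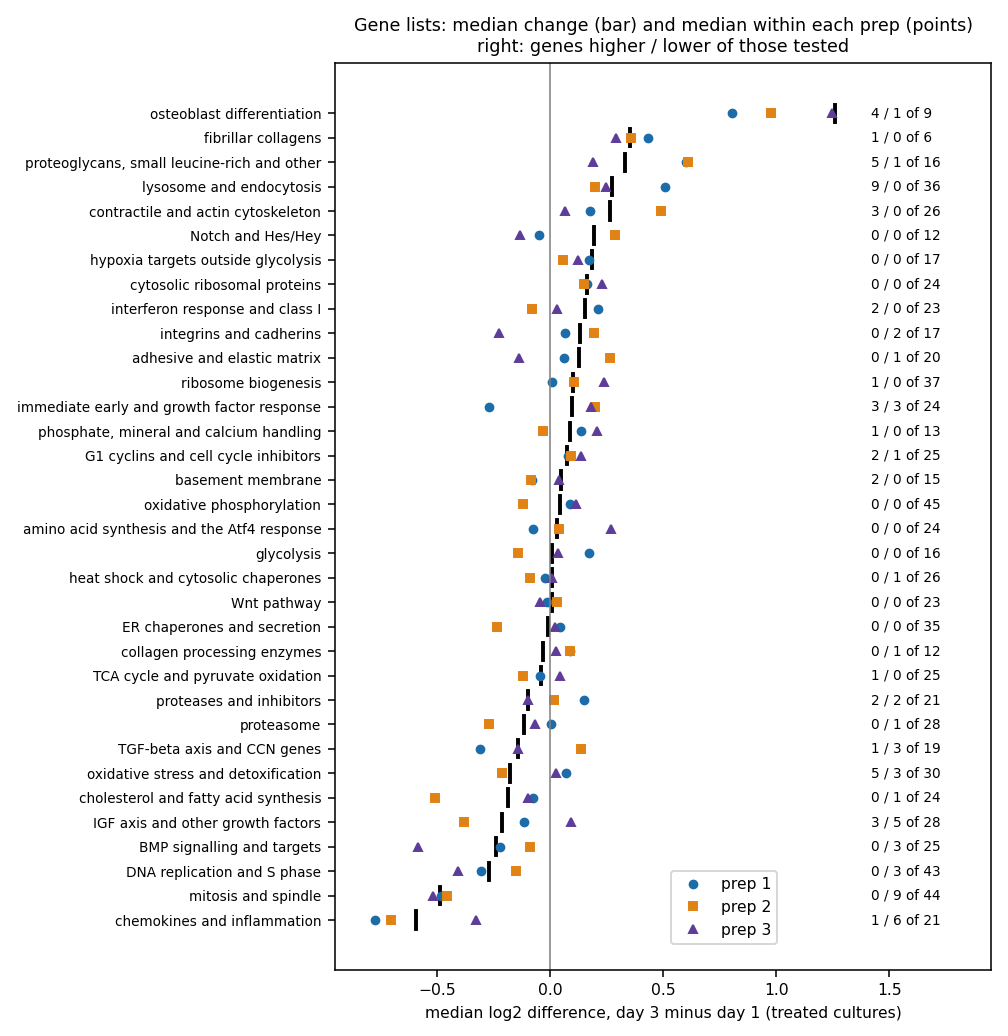
Median day 3 minus day 1 log2 difference in treated cultures for each gene list (bar), with the median within each prep (points), and at the right the genes called higher and lower of those tested. The osteoblast list, with 3 of 9 members that passed the signal filter only through treated day 3, stands at 1.26 and the chemokine list at -0.59; most other medians lie within 0.4 of 0.

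Some genes of mitosis and the spindle fell by a small amount. All 44 tested had a negative change, also under quantile or median scaling, the median was -0.49, and 9 passed the test, against 1.88% of genes called lower overall. Prc1, which bundles microtubules of the central spindle, read 404, 478 and 729.7 at day 1 and 289, 209 and 453 at day 3 (-0.79 ± 0.17 log2, adjusted p = 0.02). Mad2l1, a spindle checkpoint protein, read 586, 554 and 1022 and 402, 305 and 658 (-0.68 ± 0.14, adjusted p = 0.0186). Ccnb2, a mitotic cyclin, read 1283, 1146 and 1408 and 886, 914 and 876 (-0.51 ± 0.11, adjusted p = 0.0225). Each prep fell in all 3 genes, and for Prc1 and Mad2l1 the days overlapped, with prep 3 high on both. Each of the 3 calls was lost without at least 4 of the 6 single arrays, at adjusted p up to 0.119. The other 6 called, named after their values were seen, were Mki67, Cdc20, Anln, Cenpa, Kif20a and Ccna2, with changes of -0.67 to -0.52.

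The median of the mitosis list lay between -0.52 and -0.38 under all 22 alternatives. The number called was 1 when only the 6 treated arrays were fitted with the block, 2 with no signal filter or no mean trend, 0 with median scaling, without the prep block, and without the treated day 1 array of prep 3, 1 without either array of prep 2 or the day 3 array of prep 1, 2 without the day 1 array of prep 1, and 5 without the day 3 array of prep 3. Of 43 DNA replication genes 3 fell, where 1.88% of all tested genes were called lower. Rrm2, the small subunit of ribonucleotide reductase, went from 406, 357 and 565 to 198, 220.5 and 268 (-0.94 ± 0.17, adjusted p = 0.00744). Ezh2 changed by -0.61 and Ccne1 by -0.57. In GP cultures 5 of the 43 were called lower, Rrm2 (-0.75) and Ezh2 (-0.62) among them. In treated cultures, in contrast, Ccnd1, the cyclin that drives entry into the cycle, rose from 325, 357 and 608 to 617, 888 and 1084 (1.03 ± 0.15, adjusted p = 0.00212). A dimmer probe set of Ccnd1 changed by 0.57 without passing. Ccnd1 averaged 791 at day 0, and 702 and 917 in GP cultures at days 1 and 3. Its treated means were 430 and 863, so the rise started from a lower level and ended under the GP day 3 mean. The stress-response gene Gadd45b fell by 1.09 ± 0.23 and Gas2 rose by 1.13 ± 0.23, the other calls among 25 genes of the G1 phase and cell cycle arrest.

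Promoters of mitotic genes commonly carry CCAAT boxes and the cell cycle homology region TTTGAA, through which their periodic expression is set. The RefSeq promoter windows of GRCm38.p6, 250 bases before to 50 after the start, were searched on both strands. CCAAT was found in 27 of the 35 mitosis list genes with a window (77.1%) and in 37.4% of all 32851 windows. TTTGAA was found in 26 of the 35 (74.3%) and in 17.9% of all windows. Among the 7 called genes with a window, 5 held CCAAT and 6 held TTTGAA. A match of letters is a description and not a tested site. The 3 windows printed here belong to the called genes whose values are given above and show a window with several matches, one with a single match of each, and one with none. Capitals mark CCAAT (or its reverse ATTGG) and TTTGAA (or its reverse TTCAAA). Prc1 has 2 windows in the table, of which the first listed is used. The Ccnb2 window lies at chr9:70421505-70421804 on the minus strand, Prc1 at chr7:80294201-80294500 on the plus strand and Mad2l1 at chr6:66534971-66535270 on the plus strand.
Ccnb2: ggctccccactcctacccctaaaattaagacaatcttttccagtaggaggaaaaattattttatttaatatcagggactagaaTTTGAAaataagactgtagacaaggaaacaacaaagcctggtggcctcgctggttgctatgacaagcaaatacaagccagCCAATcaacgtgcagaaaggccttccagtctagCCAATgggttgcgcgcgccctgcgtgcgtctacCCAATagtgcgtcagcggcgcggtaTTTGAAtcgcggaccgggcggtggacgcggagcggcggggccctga
Prc1: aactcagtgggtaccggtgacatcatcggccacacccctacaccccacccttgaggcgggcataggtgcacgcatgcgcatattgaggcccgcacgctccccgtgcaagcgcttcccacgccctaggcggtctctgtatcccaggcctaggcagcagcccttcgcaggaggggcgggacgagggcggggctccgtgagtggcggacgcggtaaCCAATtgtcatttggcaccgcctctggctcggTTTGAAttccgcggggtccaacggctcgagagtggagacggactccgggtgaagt
Mad2l1: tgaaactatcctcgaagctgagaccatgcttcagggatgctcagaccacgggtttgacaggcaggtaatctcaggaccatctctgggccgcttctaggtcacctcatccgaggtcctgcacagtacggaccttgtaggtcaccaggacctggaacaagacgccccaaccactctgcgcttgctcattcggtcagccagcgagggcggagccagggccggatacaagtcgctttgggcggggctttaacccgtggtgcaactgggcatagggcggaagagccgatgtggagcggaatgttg
The Ccnb2 window held 3 CCAAT and 2 TTTGAA matches and the Prc1 window 1 of each. The Mad2l1 window held none, and whether the matches relate to the changes was not tested.

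**Figure D4:**
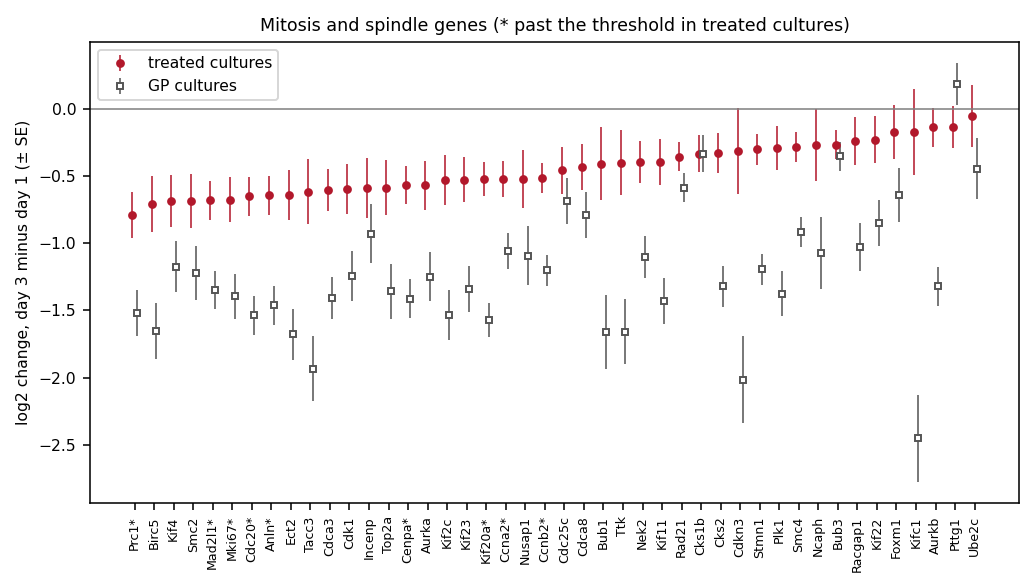
Fitted day 3 minus day 1 log2 change with its standard error for the 44 tested mitosis and spindle genes, ordered by the change in treated cultures (filled circles), with the change in GP cultures beside it (open squares); asterisks mark the 9 genes past the threshold in treated cultures. All treated changes lie between -0.79 and -0.05, and 42 of them lie above the change in GP cultures.

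Some lysosomal genes rose modestly. Of 36 tested, 9 rose and none fell, 30 had a positive change and the median was 0.28, against 2.32% of genes called higher. Hexa, a subunit of beta-hexosaminidase, rose from 206, 277 and 268 to 604, 676 and 415 (1.15 ± 0.16 log2, adjusted p = 0.0016). Tpp1, a lysosomal peptidase, rose from 460.2, 529 and 381 to 826, 822 and 685 (0.78 ± 0.11, adjusted p = 0.00188), and Atp6v1b2, a subunit of the acidifying proton pump, by 0.72 ± 0.12. A further probe set of Atp6v1b2 changed by 0.21 and did not pass (adjusted p = 0.832), being lower at day 3 in prep 1. None of the 3 genes, on the probe sets used, overlapped between the days. The collagen-degrading protease Ctsk was among the 9, at 0.66 ± 0.17 (adjusted p = 0.0492), while the median of the list in GP cultures was 0.27. Ctsk also marks osteoclasts: the 16 markers of macrophages and osteoclasts on the array summed to 859 to 1314 on the day 1 treated arrays. They summed to 952 to 1248 on the day 3 treated arrays, and only 3 of the 16 passed the signal filter. The count of lysosomal genes called higher was 4 without either treated array of prep 1 or the day 1 array of prep 2. It was 5 without the day 3 array of prep 2, and 6 without the day 1 array of prep 3.

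Detoxification and immediate early genes split by member. Of 30 oxidative stress and detoxification genes, 5 rose (Ahr, Ephx1, Mt1, Aox1 and Gstm1) and 3 fell (Nqo1, Cyp1b1 and Gstt1), where 2.32% and 1.88% of all genes were called higher and lower. Ahr, the receptor for aryl hydrocarbons, rose from 47.4, 57.2 and 48 to 177, 154 and 182 (1.75 ± 0.24 log2, adjusted p = 0.0016). Ephx1, a microsomal epoxide hydrolase, rose from 218, 265 and 309 to 469, 462 and 862 (1.13 ± 0.14, adjusted p = 0.00101). Its means were 616 at day 0, 613 and 744 in GP cultures at days 1 and 3, and 264 and 598 in treated cultures. Nqo1, a quinone reductase, fell from 159, 198 and 91.2 to 41.6, 38.6 and 38 (-1.85 ± 0.27, adjusted p = 0.00239). The arrays of the 2 days did not overlap for any of these. The Nqo1 probe set carries the manufacturer's suffix for relaxed probe design, and the gene's other tested probe set was called lower too. The metal-binding Mt1 changed by 1.45 ± 0.31 and the estrogen-metabolising cytochrome Cyp1b1 by -1.17 ± 0.20, both named after their values were seen.

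Of 24 immediate early genes, 3 rose and 3 fell, against the same shares of 2.32% and 1.88% over all genes. Egr2, a zinc finger factor, rose from 57.7, 48.5 and 46.7 to 140.2, 261 and 372 (2.23 ± 0.44 log2, adjusted p = 0.012), and Myc from 105, 98 and 124 to 161, 184 and 317 (0.96 ± 0.15, adjusted p = 0.00361). Jun, a subunit of the AP-1 factor, fell from 284, 297 and 67 to 149.8, 79.8 and 11.1 (-1.80 ± 0.33, adjusted p = 0.00915), and Phlda1 fell by 2.01 ± 0.37. The call for Egr2 was lost without either array of prep 2 (0.051 and 0.066) and that for Phlda1 without the day 1 array of prep 2 (0.060). Jun and Phlda1 were lowest in prep 3 on both days and fell in each prep. Nr4a1, named after its values were seen, rose by 1.26 ± 0.23, and Ptgs2 was the remaining call.

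A few of the larger changes lay outside these groups. Ptprv, a receptor phosphatase known from bone and testis, rose from 14.5, 15.3 and 107 to 124, 168 and 209 (2.51 ± 0.54, adjusted p = 0.0192), and all 3 of its probe sets were called. Its call was lost without any 1 array of prep 1 or 2 (0.060 to 0.106). In GP cultures Ptprv averaged 70.9 at day 1 and 182 at day 3, beside 45.5 and 167 in treated cultures. Agt, the precursor of angiotensin, rose from 67, 108 and 51.5 to 440.4, 266 and 164 (1.90 ± 0.39, adjusted p = 0.0159; 0.055 to 0.070 without the day 1 array of prep 1 or 3 or the day 3 array of prep 1 or 2). Tnfrsf19, a receptor of the tumour necrosis factor family, went from 3.5, 3.8 and 59.3 to 55.8, 69.2 and 169, and the ubiquitin-like interferon product Isg15 from 8.1, 7.4 and 5.4 to 49.8, 63.2 and 13.9. Both passed the test from day 1 means under the filter, so their sizes are uncertain. Each lost its call without 5 of the 6 single arrays (0.059 to 0.159). Tnfrsf19 averaged 10.4 at day 0, 8.8 and 5.8 in GP cultures at days 1 and 3, and 22.2 at treated day 1. Tnfrsf19 thus passed the signal filter only through the treated day 3 arrays, where it is high. Its call therefore leans upward and is given as a description. Jup, the junction protein plakoglobin, fell from 22.3, 39.8 and 37.9 to 6.5, 13 and 10.3 (adjusted p = 0.0101; 0.056 without the day 1 array of prep 2), to a day 3 mean under the filter. Eda was called lower on 1 probe set (-1.87) and changed by 1.09 on another, which did not pass, so the gene has no settled direction. Thy1, a surface glycoprotein of fibroblasts and preosteoblasts, fell from 649, 690.1 and 463 to 439.8, 231 and 195 (adjusted p = 0.0193). Rag1 was called higher (1.84) on a relaxed-design probe set with overlapping days.

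Lists of energy metabolism and protein synthesis held 0 or 1 call each, which is near the 3.96% of probe sets called overall and is no result about these lists. None of 16 glycolysis, 17 hypoxia, 45 oxidative phosphorylation, 35 endoplasmic reticulum secretion, 24 amino acid synthesis and 24 cytosolic ribosomal protein genes passed, with medians between -0.01 and 0.19. Those counts of 0 come from the same limma fit, in which 1242 probe sets had an unadjusted p under 0.05. All 24 ribosomal protein changes were positive, with a median of 0.17, and 20 of 24 were under quantile normalization. Contractile genes had 3 calls of 26, all higher, where 2.32% of all tested genes were called higher. They were Vcl (0.81), Mylk (0.76) and Cnn2 (0.71), which serve focal adhesions and actomyosin. In GP cultures 4 of the 26 were called higher. Each of the 3 treated calls was lost without at least 3 single arrays. Of 28 proteasome, 26 heat shock, 24 cholesterol and fatty acid, 37 ribosome biogenesis and 25 tricarboxylic acid cycle genes, 1 each passed: Psmd14 (-0.49), Hsph1 (-0.54), Tm7sf2 (-0.77), Imp3 (0.54) and Suclg2 (0.52). Each of these 5 calls was lost without at least 4 of the 6 single treated arrays (adjusted p up to 0.140). Of 12 Notch genes none passed, and of 13 phosphate and mineral genes only Alpl did.

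Cultures with GP alone give the change over the same days without AA and BMP-2. GP day 3 against day 1 gave 138 calls (1.85%), 33 higher (0.443%) and 105 lower (1.41%). Of the 158 probe sets that rose in treated cultures, 141 had a positive GP change and 14 were called higher there, with a median GP change of 0.34. Of the 137 that fell, 118 had a negative GP change and 21 were called lower, with a median of -0.35. The difference between the treated and the GP change was called for no probe set (0%), with a lowest adjusted p of 0.0763 in limma and with 657 (8.81%) reaching 0.05 before adjustment. No gene is therefore shown here to change differently over time with AA and BMP-2, and the values are set side by side. Other settings called between 0 and 20 probe sets for this difference.

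Among the genes closest to a called difference were Fbln2, Ptgs2, Osmr and Id4, which fell in treated cultures, and the mitosis gene Kif20a, which fell in both. Fbln2 changed by -1.26 ± 0.12 log2 in treated and -0.15 in GP cultures, a difference of -1.11 ± 0.17 (adjusted p = 0.0763). Ptgs2 changed by -1.83 ± 0.23 and -0.10, from GP levels of 55.1, 36 and 14.1 at day 1 and 38.8, 36.8 and 15.9 at day 3 (adjusted p of the difference = 0.0766). Osmr changed by -1.57 ± 0.14 and -0.49, and Id4 by -1.24 ± 0.21 and 0.34. Kif20a changed by -0.52 and -1.57, a difference of 1.05 ± 0.18 (adjusted p = 0.0763). Its other tested probe set changed by -0.46 in treated cultures and did not pass. Fbln2 was called for the difference under 7 of the alternative settings and Kif20a under 5, and the mitosis genes Aurkb under 4 and Kifc1 and Stmn1 under 3 each, the last 3 genes named after their values were seen.

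Alpl, Omd and Pth1r did not pass the test in GP cultures. Alpl read 18.5, 18.2 and 23.9 at GP day 1 and 33.4, 20.6 and 20.9 at GP day 3, a change of 0.28 log2, and every treated array lay above every GP array. Omd read 11.9, 15.3 and 33.3 and 8.1, 30.3 and 89.6 in GP cultures, Pth1r 6.5, 3.1 and 13.6 and 6, 8.6 and 4.7. The difference of the change was 2.34 ± 0.70 for Alpl (adjusted p = 0.292) and 3.01 ± 0.64 for Omd (adjusted p = 0.113). For 8 of the 9 osteoblast genes the treated change was above the GP change. Of the 9, Omd, Pth1r and Ibsp passed the signal filter only through the treated day 3 arrays. The count therefore leans toward a larger treated change and is given as a description.

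More mitosis genes were called lower in GP than in treated cultures. In GP cultures 36 of the 44 were called lower beside 9 in treated cultures, with a median of -1.28 beside -0.49 in treated cultures. Prc1 changed by -1.52 in GP cultures, from 538, 436 and 543 to 185, 136 and 214, beside -0.79 ± 0.17 in treated cultures. The treated change was above the GP change for 42 of the 44, and for 31 the difference had an unadjusted p under 0.05, none of which passed after adjustment. Lox (-0.88 in GP), Tgfbi (-1.16), Rrm2 (-0.75), Ezh2 (-0.62), Hexa (0.87) and Agt (2.34) were also called in the same direction in GP cultures. Enpep, a membrane aminopeptidase, did not pass in either: it changed by -0.62 ± 0.38 in treated cultures, at 6.5, 16.4 and 16.4 on day 3, and by 1.49 in GP cultures, at 584, 672 and 530.1.

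**Figure D5:**
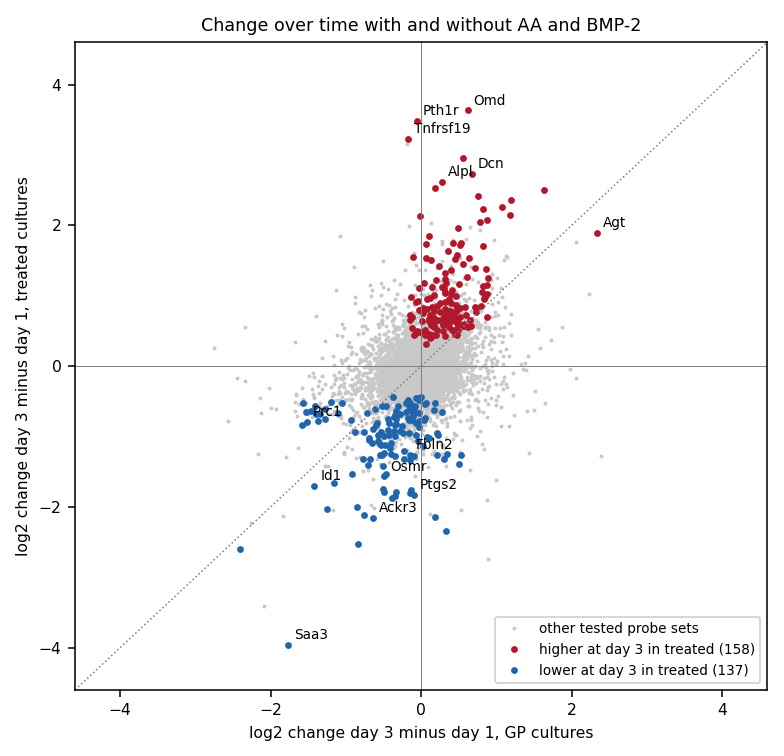
Fitted day 3 minus day 1 log2 change of every tested probe set in GP cultures (x axis) and in treated cultures (y axis); red and blue points are the 158 called higher and 137 called lower in treated cultures, grey points the rest, and the dotted line marks equal change. Alpl and Pth1r lie near 0 on the x axis and Omd at 0.62, Agt lies close to the line, and a set of mitosis genes including Prc1 lies further from 0 in GP than in treated cultures.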

How the data were processed

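The 15 RNA samples were each measured on 1 single-colour array. The values used were the deposited linear intensity values per probe set, which the authors had scaled to a common level. The software that made them is not given in the sources used here. Values under 2.8 (the 10th percentile) were set to 2.8, log2 was taken, control probe sets were left out, and probe sets with a mean under 25.4 (the 40th percentile) were filtered out. Gene names came from the platform annotation (10833 probe sets with 1 symbol, 396 with several, 1193 with none), and 10817 Entrez identifiers matched RefSeq assembly GRCm38.p6, with 0 symbols changed. Each gene was represented by its tested probe set with the highest mean signal. The probe sets of Ptprv, Rag1, Nqo1, Gas2, Gadd45b, Fgfr1, Kif20a, Kifc1 and Tubb3 carry the manufacturer's suffixes for shared sequence or relaxed design, so signal from another transcript is possible.

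The main model took all 15 arrays (limma 3.58.1 under R 4.3.3; linear fit and moderated variances with a mean trend). It had a coefficient per group and prep number as a block, leaving 8 residual degrees of freedom. P-values were adjusted by Benjamini-Hochberg over all tested probe sets and called at 0.05. The fit was tested on simulated data. The block follows the pairing of the arrays by prep number: in all 30 pairs of arrays with the same number, the deviations from the group means correlated, at 0.19 to 0.71. Samples were grouped by their titles.

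The named genes were the 12 largest called increases and decreases with the same sign in every prep, up to 4 each way with a day mean under the filter, fixed bone and BMP genes, and up to 3 called genes per list with the smallest p. The comparison, gene lists and alternatives were chosen with earlier results of these data known. Alternatives covered the block, arrays, floor, filter, scaling, variance model, weights and left-out arrays or preps.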

Additional observations from a re-analysis of the deposited data

How the results depend on the processing

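Without the replicate block, which pairs arrays by prep number, treated day 3 against day 1 gave 10 calls and GP day 3 against day 1 gave 53. With only the arrays of each comparison the treated count was 84 with the block and 0 without it (538 probe sets at an unadjusted limma p under 0.05), and the GP count was 17 without it. With no signal filter the counts were 188 and 90, and array weights gave 459 for GP. Other settings left the treated count between 201 and 306. For the difference between the treated and GP changes, where the main fit called none, a floor at the 40th percentile called 18, log2(value + 16) 12, quantile normalization 1 and array weights 15. Leaving out single arrays or whole preps gave 0 to 267 calls for treated cultures, 29 to 172 for GP cultures and 0 to 20 for the difference, and the cause was not tested. Uncalled genes whose sign turned in these left-out fits ranged from -0.76 to 0.10 (Smad6), -0.23 to 0.12 (Msx1), -0.42 to 0.16 (Nog), -0.97 to 0.80 (Ccn2) and -0.13 to 0.43 (Dlx5) on the log2 scale. Signals near the floor, in prep 3 above all, limit the sizes of change for dim genes.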
